A study of Mus musculus with 18 samples.

Results

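The genes described here are 9 markers of platelets and megakaryocytes, the large marrow cells that shed platelets: Gp1ba, Gp1bb, Gp5, Gp9, Gp6, Clec1b, Treml1, Tubb1 and Vwf. They were chosen by name, matched to Ensembl identifiers, and make up 9 of the 49585 genes counted by RNA-seq in 18 libraries. Kaede mice, whose cells carry a fluorescent protein that turns from green to red under ultraviolet or violet light, received in vitro polarised OT-II CD45.1 Th1 cells, were immunised with ovalbumin in complete Freund's adjuvant, and 10 days later were challenged with 100 μg of heat-aggregated ovalbumin in the footpad or the ear pinna. Inflamed tissue was photoconverted, and viable CD45+ Kaede red+ cells were sorted either from the tissue, the nonmigrated cells of joint and skin, or from its draining lymph node, the migrated cells of each site. The remaining groups are node cells that the labels give as steady state, draining the joint or the ear. The labels describe these cells, too, as having migrated from the tissue to the node. Each of the 6 groups holds 3 libraries, each from pooled young adult mice, so that p-values measure the spread between pools. The sample titles of the steady-state groups read PBS for the joint and naive for the ear, the joint titles also carry the letters KG, and the labels do not say how these cells were photoconverted.

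Platelets have no nucleus and carry messenger RNA left by the megakaryocyte. They bind von Willebrand factor through the glycoprotein Ib-IX-V complex, collagen through glycoprotein VI and podoplanin through CLEC-2, and they release granules when activated. Inflamed synovium is known to attract platelets and their microparticles. Some of these genes are not restricted to platelets: Vwf is a classical product of endothelial cells, and Clec1b, which encodes CLEC-2, is also made by some myeloid cells.

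The assigned counts per library ranged from 19239531 to 43814403, and the nonmigrated and migrated skin libraries, at 19239531 to 22528895, were all shallower than the joint libraries, so that site and depth cannot be told apart from these libraries alone. Leukocyte Ptprc, which encodes the CD45 used for sorting, was at a mean of 1190 to 2326 CPM in every group, where CPM give the counts of a gene relative to all assigned counts of its library. The 9 platelet and megakaryocyte genes lay far below this. These CPM values rest on library sizes normalised by trimmed mean of M values over all 18 libraries, and 3 counts, taken here as the floor, equal 0.065 to 0.165 CPM. Intervals and floors cover counting error only.

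The upstream sequences of Treml1 and of 3 subunits of the von Willebrand factor receptor are shown because these genes had unlike group profiles. For Gp5, groups next to each other in mean level overlapped throughout. The sequences are the 250 bases before the RefSeq start on build GRCm38.p6, written 5′ to 3′ on the strand of the gene. Capitals mark GATA-type letters (AGATAA or AGATAG, and TGATAA or TGATAG) and ETS-type letters (AGGAAG or else CGGAAG), searched on both strands, and no match of one type overlapped a match of the other in these windows.
Gp1ba (chr11:70638872-70639121, plus strand): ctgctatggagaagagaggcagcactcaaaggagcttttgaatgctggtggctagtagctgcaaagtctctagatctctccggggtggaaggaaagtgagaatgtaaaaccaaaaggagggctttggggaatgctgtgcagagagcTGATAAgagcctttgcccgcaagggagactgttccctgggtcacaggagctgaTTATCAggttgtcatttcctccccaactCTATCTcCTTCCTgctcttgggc
Gp5 (chr16:30310782-30311031, minus strand): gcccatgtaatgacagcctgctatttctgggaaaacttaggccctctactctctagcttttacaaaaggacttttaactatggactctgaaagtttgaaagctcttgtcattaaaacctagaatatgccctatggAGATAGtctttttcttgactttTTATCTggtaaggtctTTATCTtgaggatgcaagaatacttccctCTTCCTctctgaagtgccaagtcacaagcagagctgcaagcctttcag
Gp9 (chr6:87777820-87778069, plus strand): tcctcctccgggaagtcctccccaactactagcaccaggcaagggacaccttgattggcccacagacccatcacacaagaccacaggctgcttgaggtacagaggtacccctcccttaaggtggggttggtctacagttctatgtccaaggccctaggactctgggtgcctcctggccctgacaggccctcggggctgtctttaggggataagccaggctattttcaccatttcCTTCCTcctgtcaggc
Treml1 (chr17:48359666-48359915, plus strand): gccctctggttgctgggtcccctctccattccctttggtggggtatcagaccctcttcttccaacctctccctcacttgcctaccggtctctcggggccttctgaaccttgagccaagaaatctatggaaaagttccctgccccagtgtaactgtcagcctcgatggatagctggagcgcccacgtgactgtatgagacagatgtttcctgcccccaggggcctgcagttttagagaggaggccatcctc
Gp1ba and Gp5 each held 3 GATA-type matches and 1 ETS-type match, Gp9 held 1 ETS-type match, and Treml1 held neither. RefSeq windows were matched for 8 of the 9 genes. Of these, 5 held a GATA-type match against 26.5% of all 32851 promoter windows, 5 held an ETS-type match against 39.2%, and 3 held both against 9.21%. These matches describe letters only.

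The 9 genes did not share a pattern across the 6 groups. Vwf, Clec1b and Gp6 were highest in skin nonmigrated cells and next in joint nonmigrated cells. Treml1, Gp1bb, Gp9 and Gp5 were highest in joint nonmigrated cells, Tubb1 was highest in skin nonmigrated cells, and Gp1ba was highest in the steady-state nodes. For Gp5 and Tubb1 the CPM range of the highest group overlapped that of the next. For Gp1ba the joint steady-state node overlapped joint nonmigrated cells. Over the 18 libraries the Pearson correlation of log2(CPM + 1) between pairs of these genes ran from -0.50 to 0.95, with a median of 0.42 over 36 pairs. The libraries share groups and the counts are low, so these correlations are given only as a description. In bulk RNA, fewer cells of a type and less RNA per cell cannot be told apart.

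**Figure D1:**
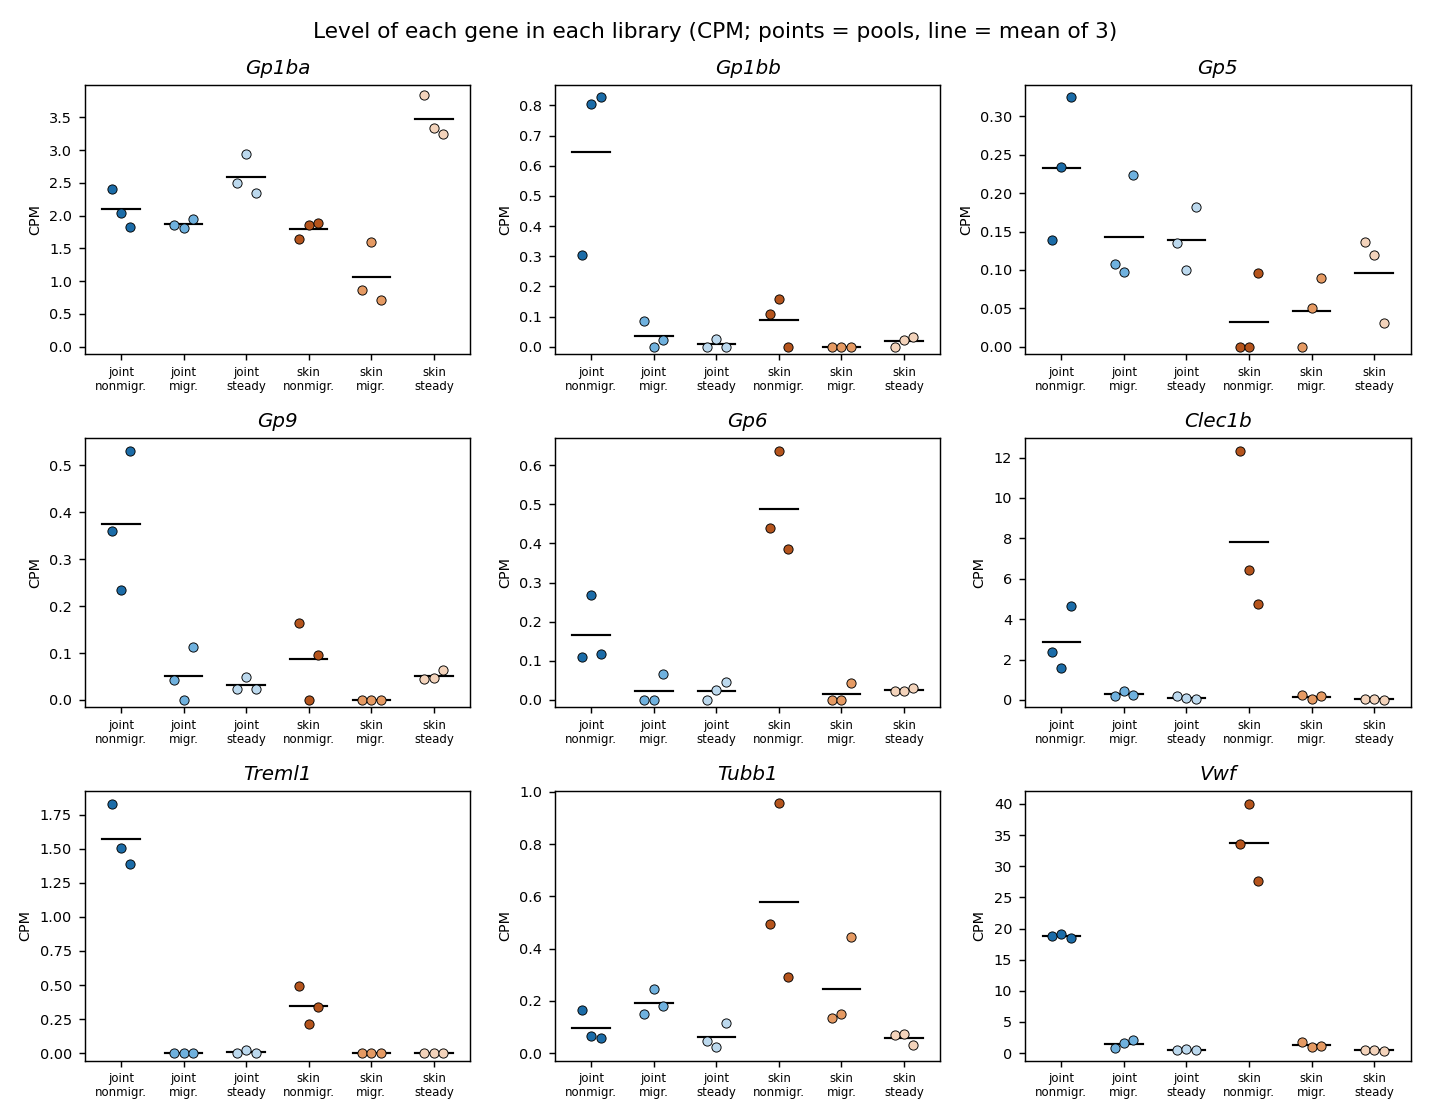
Level of each of the 9 genes in CPM (vertical axis, linear, a separate scale in each panel) in the 18 libraries, by group (horizontal axis). Points are pools and lines are means of 3. Vwf, Clec1b and Gp6 stand highest in skin nonmigrated cells, Treml1, Gp1bb and Gp9 in joint nonmigrated cells, and Gp1ba in the steady-state nodes.

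Per kilobase of exon, the ranking among the 9 genes also depended on the site. In joint nonmigrated cells Vwf stood at 1.17 ± 0.0189 CPM per kilobase (SD, n = 3), Treml1 at 1.12 ± 0.164 and Gp1ba at 0.771 ± 0.109, followed by Clec1b at 0.563 ± 0.314. The ranges of Vwf and Treml1 overlapped there. Gp1bb has no place in this order, because most of its exonic length is shared with another gene. In skin nonmigrated cells Vwf stood at 2.10 ± 0.388 and Clec1b at 1.54 ± 0.783, while Treml1 was at 0.248 ± 0.101. Gp1bb aside, Gp6 was the lowest of the 9 genes per length in the joint nonmigrated cells, at 0.0281 ± 0.0150. In the skin nonmigrated cells Gp5 (0.0147 ± 0.0254) and Gp9 (0.0988 ± 0.0939) were at or under the floor of 3 counts in every library. The lowest place there was therefore not read.

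**Figure D2:**
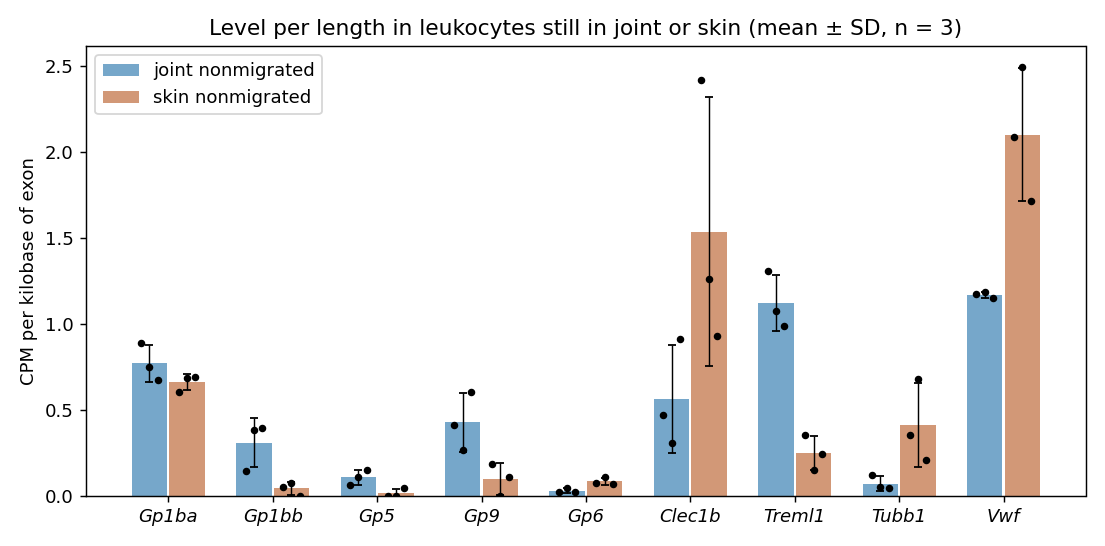
Level per length (CPM per kilobase of exon, linear axis from 0) of the 9 genes in joint nonmigrated and skin nonmigrated cells. Bars are means, error bars the SD of 3 pools and points the pools. The Gp1bb bars divide by its full exonic length, most of which is shared with another gene. Treml1 is near Vwf in the joint, at 1.12 against 1.17, and far below it in the skin, at 0.248 against 2.10.

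The first comparison asked which genes differed between cells that had left an inflamed tissue and cells that stayed in it. A gene was called where edgeR's quasi-likelihood test gave a Benjamini-Hochberg adjusted p under 0.05 over all genes tested and the log2 fold change exceeded 1 in size. Of the 9 genes, 6 passed the filter on low counts (Gp1ba, Gp6, Clec1b, Treml1, Tubb1 and Vwf) and 3 did not (Gp1bb, Gp5 and Gp9). In the joint 4 were called lower in migrated cells, where 18.4% of 16777 genes tested were called lower (3079 genes, against 2678 higher). In the skin the same 4 genes, Vwf, Clec1b, Gp6 and Treml1, were called lower in migrated cells, where 19.7% of genes tested were called lower (3307, against 2633 higher). A gene that passed the filter only through the nonmigrated cells could hardly be called in the other direction, so these counts are a description. Gp1ba and Tubb1 were called at neither site.

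**Figure D3:**
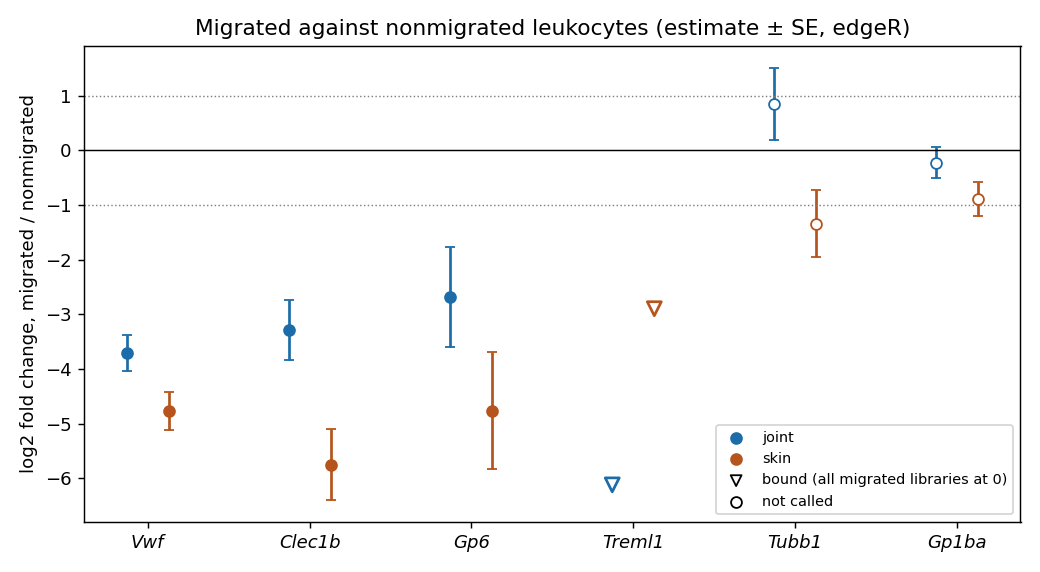
Log2 fold change of migrated against nonmigrated cells (vertical axis) for the 6 genes that passed the filter, in joint and skin. Circles are edgeR estimates with SE, filled where called, and triangles are the bounds for Treml1, which had 0 counts in every migrated library. Dotted lines mark a log2 change of 1 in either direction. Vwf, Clec1b and Gp6 lie below -2 at both sites, and Gp1ba lies between -1 and 0.

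Vwf (chr6:125546774-125686679, plus strand, mm10, 56 exon blocks) encodes von Willebrand factor, the multimer that tethers platelets to vessel walls and that megakaryocytes and endothelium store in granules. It had 679, 569 and 625 counts in the joint nonmigrated libraries against 37, 64 and 95 in the joint migrated ones. In the skin it had 612, 754 and 571 counts in nonmigrated against 40, 20 and 27 in migrated libraries. At both sites every nonmigrated library stood above every migrated library. The log2 change was -3.71 ± 0.33 (SE) in the joint, with an adjusted p of 3.6e-06 by edgeR's quasi-likelihood test, and -4.76 ± 0.35 in the skin, with an adjusted p of 1.0e-06. In joint nonmigrated cells the level was even across pools, at 18.8 ± 0.303 CPM (SD, n = 3). In skin nonmigrated cells it was 33.7 ± 6.23 CPM.

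Most endothelial markers were also lower in migrated cells, where 18.4% of all genes tested were called lower in the joint and 19.7% in the skin. Of the 16 endothelial genes tested out of 17, 13 were called lower and none higher in joint migrated cells, with a median log2 change of -4.15 against 0.02 over all genes tested. In the skin 11 were called lower, with a median of -2.63, or -2.32 with genes absent from a group set at their bound, against 0.01 over all genes. Summed over the list, the endothelial markers stood at 180 to 261 CPM in joint nonmigrated, 92.7 to 193 in skin nonmigrated, 31.0 to 36.4 in joint migrated and 36.1 to 39.2 CPM in skin migrated cells. The list was uneven: per kilobase over the 18 libraries Eng (7.59) and Lyve1 (4.01) stood highest, followed by Flt1 at 1.18. Which cells made these genes was not tested. None of the 17 was at or under the floor in all libraries of either nonmigrated group. Cdh5, which encodes VE-cadherin, was at a mean of 4.18 CPM in joint nonmigrated and 3.29 CPM in skin nonmigrated cells, Tie1 at 2.31 and 0.706, and Emcn at 1.05 and 0.352, and none of these 3 was called between the sites. Kdr, a receptor for vascular endothelial growth factor, was higher in the skin, at 23.0 ± 2.98 CPM (SD, n = 3) against 5.25 ± 0.925 in the joint. Its log2 difference of -2.26 ± 0.22 (SE) was called. Between the nonmigrated groups Lyve1 was called higher in the joint (log2 difference 2.45), Kdr lower, and 14 endothelial genes were not called. Among all genes tested 5.45% were called higher there and 8.86% lower. The median difference of the list was 0.93, higher in the joint, against 0.01 over all genes tested, and the summed ranges overlapped. The part of endothelial cells in the Vwf result was not tested.

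Clec1b (chr6:129397297-129409335, plus strand) encodes CLEC-2, the podoplanin receptor of platelets. It had 86, 47 and 158 counts in joint nonmigrated, 10, 18 and 12 in joint migrated, 225, 121 and 98 in skin nonmigrated, and 5, 1 and 4 in skin migrated libraries. The nonmigrated and migrated libraries did not overlap at either site. Its log2 change in migrated cells was -3.29 ± 0.55 in the joint (edgeR, adjusted p = 0.00035) and -5.75 ± 0.65 in the skin (adjusted p = 2.2e-05). The gene shares 184 exonic bases, 3.61% of its exonic length, with Clec9a on the same strand. Clec9a, a marker of conventional dendritic cells, differed by -0.04 ± 0.37 in the joint, where it was not called, and by -2.04 ± 0.40 in the skin, where it was called lower in migrated cells (adjusted p = 0.0011). Reads that overlap exons of both genes are dropped in the default mode of HTSeq, the authors' counting program. The effect of this on the Clec1b counts was not tested.

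Pdpn, which encodes the CLEC-2 ligand podoplanin, was at 95.2 ± 25.9 CPM (SD, n = 3) in joint nonmigrated and 339 ± 156 CPM in skin nonmigrated cells, against 0.224 and 0.506 CPM in the migrated groups. It was called lower in migrated cells at both sites, with log2 changes of -8.79 ± 0.52 and -9.48 ± 0.52 (SE). Of all 16777 genes tested, 18.4% were called lower in joint and 19.7% in skin migrated cells, and 2678 and 2633 genes were called higher. The median log2 change of 8 ligands and partners of these receptors was -6.04 in the joint and -5.31 in the skin. Over all genes tested it was 0.02 and 0.01. At each site 6 of the 8 were called lower and 1 higher. Those lower in the joint included the collagen genes Col3a1 (-7.93 ± 1.06) and Col1a2 (-7.01 ± 0.90), which are made by fibroblasts, and the leukocyte integrin gene Itgam (-6.15 ± 0.28). The gene called higher was Adamts13, the protease that trims von Willebrand factor multimers, at 2.48 ± 0.53 in the joint and 1.39 ± 0.51 in the skin.

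Gp6 (chr7:4363965-4397744, minus strand) encodes glycoprotein VI, the collagen receptor that signals through the Fc receptor gamma chain. It had 4, 8 and 4 counts in joint nonmigrated against 0, 0 and 3 in joint migrated libraries, and 8, 12 and 8 in skin nonmigrated against 0, 0 and 1 in skin migrated libraries. The groups did not overlap at either site, but the migrated groups were at or under the floor. As summed CPM, joint nonmigrated exceeded joint migrated cells by a ratio of 7.04 (95% exact counting interval 2.02 to 37.7), and skin nonmigrated exceeded skin migrated cells by 31.3 (5.17 to 1279). The adjusted p by edgeR was 0.026 in the joint and 0.0025 in the skin. In the joint the gene had too few counts to be tested once any of the joint libraries was left out. Its partner Fcer1g, which myeloid cells also express, was lower in joint migrated cells, with a log2 change of -3.50 ± 0.15.

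Treml1 (chr17:48359916-48367176, plus strand) encodes TLT-1, a receptor kept in platelet alpha granules and brought to the surface on activation. It had 66, 45 and 47 counts in joint nonmigrated and 9, 4 and 7 in skin nonmigrated libraries. It had 0 counts in all migrated libraries of both sites, and across the 6 steady-state libraries it had 1 count in total. Set against a floor of 3 counts over the group, joint nonmigrated cells were at least 69.6-fold higher than joint migrated cells, and skin nonmigrated cells at least 7.45-fold higher than skin migrated cells. The adjusted p by edgeR was 3.3e-05 in the joint and 0.00094 in the skin. Every library from tissue held 4 or more counts and no library from a node held more than 1.

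The glycoprotein Ib-IX-V complex, which binds von Willebrand factor, is encoded by Gp1ba, Gp1bb, Gp5 and Gp9, and these subunit genes differed from each other. Gp1ba (chr11:70639122-70642036, plus strand), the ligand-binding subunit, had 87, 61 and 62 counts in joint nonmigrated and 86, 74 and 87 in joint migrated libraries, which overlapped once scaled for depth. It had 30, 35 and 39 counts in skin nonmigrated and 19, 32 and 16 in skin migrated libraries, where every migrated library was below every nonmigrated one in CPM. The log2 change was -0.23 ± 0.29 (edgeR, adjusted p = 0.53) in the joint and -0.89 ± 0.31 (adjusted p = 0.028) in the skin, short of the fold required. Without skin migrated replicate 2 the skin change was -1.30 and was called (adjusted p = 0.0040).

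Gp9 (chr6:87778072-87779768, plus strand), the subunit needed to bring the complex to the cell surface, had 13, 7 and 18 counts in joint nonmigrated and 2, 0 and 5 in joint migrated libraries. In skin nonmigrated cells it had 3, 0 and 2 counts, and in skin migrated cells 0 in every library. Gp5 (chr16:30307685-30310779, minus strand), a subunit that thrombin cleaves, had 5, 7 and 11 counts in joint nonmigrated, 5, 4 and 10 in joint migrated, and 0 to 2 in all skin nonmigrated and skin migrated libraries. With every gene above 0 in some library retained, 11.8% of the genes tested were called lower in joint migrated cells, and there Gp9 was called (log2 change -2.81 ± 0.92, edgeR adjusted p = 0.027) and Gp5 was not (-0.74 ± 0.79, adjusted p = 0.53).

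Gp1bb (chr16:18620317-18622403, minus strand), the subunit disulphide-linked to the ligand-binding chain, had 11, 24 and 28 counts in joint nonmigrated and 4, 0 and 1 in joint migrated libraries, without overlap. In skin nonmigrated cells it had 2, 3 and 0 counts, and in skin migrated cells 0 in every library. Without the filter its log2 change in joint migrated cells was -4.02 ± 0.91 (edgeR, adjusted p = 0.0023), and it was called in each of 4 fits without 1 joint library in which it passed the filter. This gene cannot be read alone, because 1902 of its 2087 exonic bases (91.1%) lie in exons of Sept5 on the same strand. Sept5, which encodes a septin, was at 39.3 ± 17.1 CPM (SD, n = 3) in joint nonmigrated, 1.62 in joint migrated and 3.31 in skin nonmigrated cells, so it was highest in the same group as Gp1bb. Reads that overlap exons of both genes are dropped in HTSeq's default mode. The part of Sept5 transcripts in the remaining Gp1bb counts was not tested.

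Tubb1 (chr2:174450695-174457882, plus strand) encodes the beta tubulin of the platelet marginal band. It had 6, 2 and 2 counts in joint nonmigrated, 7, 10 and 8 in joint migrated, 9, 18 and 6 in skin nonmigrated and 3, 3 and 10 in skin migrated libraries. The CPM ranges of nonmigrated and migrated libraries overlapped at both sites. Its log2 change in migrated cells was 0.86 ± 0.66 (edgeR, adjusted p = 0.29) in the joint and -1.34 ± 0.61 (adjusted p = 0.080) in the skin. The skin change was called once skin nonmigrated replicate 3 was left out (-1.67, adjusted p = 0.041) or skin migrated replicate 3 (-2.12, adjusted p = 0.031).

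The second comparison set the sites side by side. It uses the same nonmigrated libraries as the comparisons above. In joint against skin nonmigrated cells 3 of the 6 genes tested were called, 1 higher in the joint and 2 lower, where 5.45% of all genes tested were called higher and 8.86% lower. Treml1 was higher in the joint by 2.04 ± 0.43 on the log2 scale (edgeR, adjusted p = 0.012), and every joint library stood above every skin library. Tubb1 was lower in the joint (-2.63 ± 0.65, edgeR adjusted p = 0.012), as was Clec1b (-1.57 ± 0.48, adjusted p = 0.031). Vwf differed by -0.98 ± 0.29 (adjusted p = 0.027), just short of the fold required, and Gp6 by -1.69 ± 0.70 (adjusted p = 0.093). Gp1ba was nearly level, at 0.09 ± 0.29 (adjusted p = 0.84).

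The Clec1b call between sites was lost without joint nonmigrated replicate 1 (adjusted p = 0.098), joint nonmigrated replicate 2 (0.11), skin nonmigrated replicate 1 (0.16) or skin nonmigrated replicate 2 (0.051), as edgeR fits. Without skin nonmigrated replicate 2 the Tubb1 call was lost too (adjusted p = 0.069), and without skin nonmigrated replicate 3 Vwf was called (-1.11, adjusted p = 0.014). Skin nonmigrated replicate 3 stood apart in the whole table: leaving it out raised the genes called between the nonmigrated groups from 2400 to 3720. The 3 untested subunit genes had more counts in joint than in skin nonmigrated cells, 63 against 5 for Gp1bb, 38 against 5 for Gp9 and 23 against 2 for Gp5, a ratio of 6.65 for Gp5 once scaled for depth (95% exact counting interval 1.64 to 58.2). Without the filter none of these 3 was called, with edgeR adjusted p of 0.058, 0.21 and 0.13. With a filter of at least 10 counts in every library of 1 group, Gp1bb was tested and called higher in the joint (2.69 ± 0.89, adjusted p = 0.049).

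Marrow precursor markers were higher in the joint, as Treml1 was. Summed over 15 markers they stood at 4209 to 13674 CPM in joint nonmigrated and 52.3 to 97.3 CPM in skin nonmigrated libraries. The list was uneven: per kilobase over the 18 libraries Ngp (629), Camp (205) and Ltf (134) stood highest, followed by Mpo at 22.7. Of the 15, 14 were called higher in joint than in skin nonmigrated cells and none lower, against 5.45% and 8.86% of all genes tested. The median log2 difference was 7.76, or 7.74 with genes absent from a group set at their bound. In skin nonmigrated cells 6 of them, Elane, Igll1, Ms4a3, Rag1, Vpreb1 and Vpreb3, were at or under the floor in all libraries. The erythroid genes Car1, at 1.26 CPM in joint nonmigrated cells and 0 in every other group, and Slc4a1, at 1.43 CPM against 0.0161 in skin nonmigrated cells, were also higher in the joint. They were 2 of the 8 erythroid genes tested and the only ones called between the nonmigrated groups, the median difference of the list was 0.44, and its summed level overlapped, at 20.9 to 34.4 CPM in the joint and 4.30 to 38.8 CPM in the skin. The part of marrow cells in the Treml1 difference, or in the counts of Gp1bb, Gp9 and Gp5, was not tested.

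**Figure D4:**
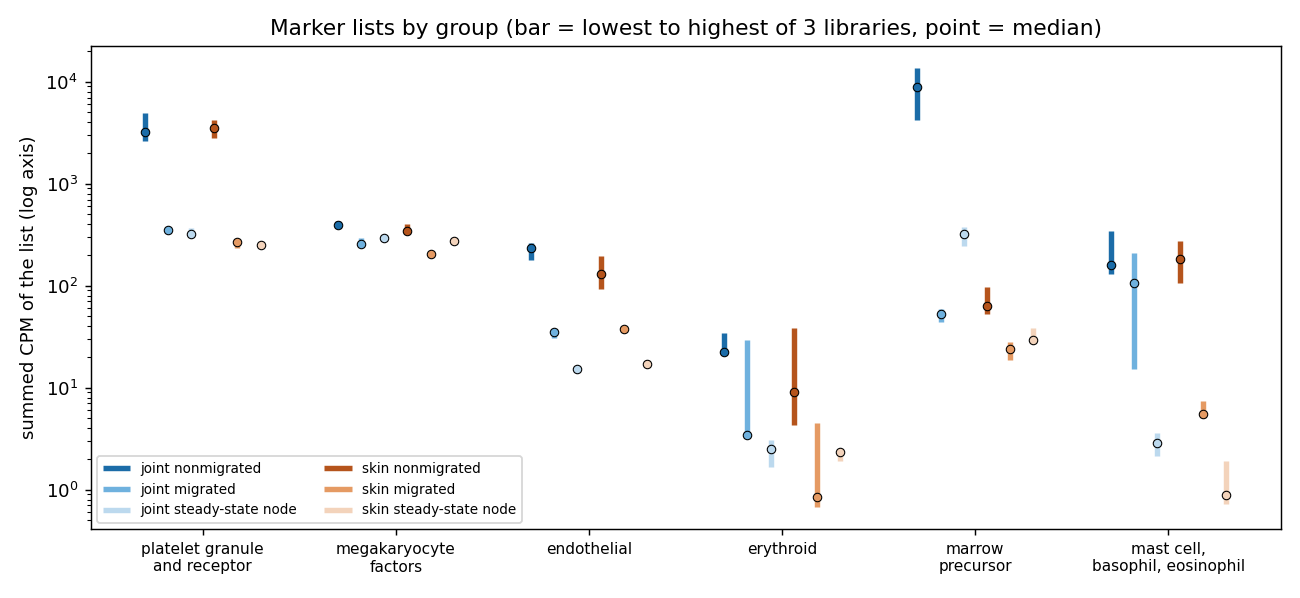
Summed CPM of 6 marker lists (vertical log axis) by group. Bars run from the lowest to the highest of 3 libraries and points are medians. The marrow precursor list reaches 13674 CPM in joint nonmigrated cells and no more than 97.3 CPM in skin nonmigrated cells, whereas the platelet granule and receptor list is at 2608 to 4936 and 2785 to 4192 CPM in these groups. Ngp, Camp and Ltf are the highest of the marrow precursor list per kilobase.

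Between joint migrated and skin migrated cells none of the 6 genes tested was called by edgeR, at a background of 1.14% of genes called in either direction. Gp1ba differed by 0.75 ± 0.30, with an unadjusted p of 0.028 and an adjusted p of 0.24, and it alone of the 6 was under 0.05 before adjustment. Vwf was at 0.801, 1.56 and 2.13 CPM in joint migrated and 1.00 to 1.81 CPM in skin migrated libraries, and the ranges overlapped. None of the genes was called by DESeq2 either.

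Whether the migration change itself differed between joint and skin was tested as an interaction. None of the 6 genes was called by edgeR, where 6.13% of all genes tested were called in either direction. The changes of Clec1b differed by 2.46 ± 0.85 (unadjusted p = 0.014, adjusted p = 0.097), those of Tubb1 by 2.20 ± 0.90 (0.032 and 0.15) and those of Vwf by 1.06 ± 0.44 (0.035 and 0.16), and these 3 were under 0.05 before adjustment. For Treml1 no estimate was possible, since both migrated groups were at 0. The Clec1b difference was called by DESeq2 (adjusted p = 0.033), without joint nonmigrated replicate 3 (edgeR, 0.047) and without skin nonmigrated replicate 3 (0.037), and the Vwf difference was called without joint migrated replicate 1 (1.38, adjusted p = 0.038).

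The third comparison set node cells that had come from inflamed tissue against steady-state node cells. Of the 9 genes 2, Vwf and Gp1ba, passed the filter in this fit. Vwf had 23, 26 and 19 counts in joint steady-state and 24, 19 and 12 in skin steady-state libraries. It was called higher in joint migrated cells by 1.48 ± 0.37 (edgeR, adjusted p = 0.0051), where 16.9% of 17107 genes tested were called higher. It was also higher in skin migrated cells, by 1.61 ± 0.40 (adjusted p = 0.0030), where 21.5% were called higher and 15.0% lower. The migrated cells of each site thus stood between the tissue and the steady-state node in Vwf level, without overlap on either side.

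Gp1ba had 111, 118 and 103 counts in joint steady-state and 168, 140 and 103 in skin steady-state libraries. It was called lower in skin migrated than in skin steady-state cells (log2 change -1.65 ± 0.27, edgeR adjusted p = 0.00013), and it was not called in the joint (-0.48 ± 0.25, adjusted p = 0.12). Its order by mean CPM was skin steady state (3.47), joint steady state (2.60), joint nonmigrated (2.09), joint migrated (1.87), then skin nonmigrated (1.80) and last skin migrated (1.06), and the ranges of neighbours in this order were apart only at the first and the last step. Between the steady-state nodes neither gene was called, at a background of 3.89%, with Gp1ba at -0.42 ± 0.24 in joint against skin (adjusted p = 0.35). The other 7 genes were too low to be tested. In the steady-state nodes Clec1b had 0 to 8 counts a library, Tubb1 had 1 to 5, Gp5 had 1 to 8, and Gp1bb, Gp9, Gp6 and Treml1 had no more than 2. Gp1ba thus stood highest where the other subunit genes of its complex had few counts, and which cells made it was not tested.

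The other platelet genes were read from lists by function. Of 22 platelet granule and receptor genes 21 were tested. In joint migrated against nonmigrated cells 11 were called lower, 7 higher and 3 not, with a median log2 change of -2.37. In the skin 14 were called lower, 3 higher and 4 not, with a median of -2.91. Over all 16777 genes tested 18.4% were called lower in the joint and 19.7% in the skin, and 2678 and 2633 genes were called higher. The medians over all genes were 0.02 and 0.01. Among the granule genes Pf4, which encodes platelet factor 4, was at 133 ± 38.8 CPM (SD, n = 3) in joint nonmigrated and 157 ± 134 in skin nonmigrated cells and was lower in migrated cells of each site, with log2 changes of -6.48 ± 0.88 and -7.72 ± 0.98. Thbs1 (thrombospondin 1), F13a1 (factor XIII A chain) and Cd36 were lower in joint migrated cells, with log2 changes of -6.25 ± 0.94, -6.61 ± 0.65 and -6.18 ± 0.43. Macrophages and monocytes also express these genes. Mpig6b, which is largely restricted to the megakaryocyte lineage, was not tested and did not exceed a mean of 0.0549 CPM in any group. Ppbp, a granule gene of the same list, was at a mean of 6.97 CPM in joint nonmigrated and 1.41 in joint migrated cells. In the skin it was at 10.0 CPM in nonmigrated and 0.134 in migrated cells. Its nonmigrated libraries ran from 0.860 to 10.9 CPM in the joint, overlapping the migrated ones, and from 1.59 to 19.8 in the skin.

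Several platelet receptor genes were higher in joint migrated cells, and some of them also in the skin. Esam, an adhesion molecule also of dendritic cells and endothelium, was higher by 4.41 ± 0.44 in the joint (edgeR, adjusted p = 8.7e-06). Tbxa2r, the thromboxane receptor gene, was higher by 2.95 ± 0.29, Itga2 by 2.63 ± 0.32 and Pear1 by 2.33 ± 0.35. In skin migrated cells Esam (4.32 ± 0.45) and Tbxa2r (3.12 ± 0.30) were called higher too, whereas Itga2 (-0.18 ± 0.30) and Pear1 (0.56 ± 0.33) were not called. The integrin genes Itga2b and Itgb3, whose products pair as the platelet fibrinogen receptor, differed between sites. Itga2b was at 6.55 ± 1.48 CPM in joint nonmigrated and 29.9 ± 14.1 in skin nonmigrated cells, a log2 difference of -2.32 ± 0.38, and Itgb3 was likewise lower in the joint (-2.14 ± 0.42). The pair did not run together in the joint groups. Itgb3 was at 27.2 CPM in nonmigrated, 76.6 in migrated and 66.7 in steady-state cells of the joint, where Itga2b was at 2.72 and 2.86 in the last 2. In the skin both means were higher in nonmigrated than in migrated cells. Itga2 (-2.02 ± 0.32) and the thrombin receptor gene F2rl2 (-1.73 ± 0.24) were lower in joint than in skin nonmigrated cells, and the selectin gene Selp was higher (1.44 ± 0.32). In the interaction of site and migration 6 of the 21 genes were called, where 6.13% of all genes tested were. All 6 (Itga2b, Itga2, Itgb3, Pear1, F2rl2 and Cd9) had the higher log2 change in the joint, from 1.24 ± 0.28 for Cd9 to 2.86 ± 0.54 for Itga2b.

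Of 18 platelet signalling and cytoskeleton genes 17 were tested, and at each site 6 were called lower and 2 higher in migrated cells, with medians of -0.76 and -0.85. Over all 16777 genes tested 3079 were called lower and 2678 higher in the joint, and 3307 lower and 2633 higher in the skin. The 2 listed genes called higher were no larger a share than among all genes, whereas the 6 called lower were a larger share. Thromboxane synthase Tbxas1 (-7.45 ± 0.49), the cyclooxygenase 1 gene Ptgs1 (-4.86 ± 0.35) and Plek (-2.28 ± 0.21) were lower in joint migrated cells on the log2 scale. The adaptor Lat, also of T cells, was higher by 2.99 ± 0.38, and Rasgrp2, which activates Rap1, by 1.62 ± 0.22. Of 12 megakaryocyte factors 10 were tested, and at each site 5 were called lower and 1 higher, with medians of -1.36 and -1.86. Nfe2, a transcription factor of megakaryocytes and myeloid cells, was at 66.9 ± 16.8 CPM in joint nonmigrated and 19.6 ± 5.01 in skin nonmigrated cells, a difference of 1.65 ± 0.34. Gata1 was at 0.793 CPM in joint nonmigrated, 2.51 in skin nonmigrated and 3.08 to 3.58 CPM in the steady-state groups, but 120 of its 152 counts in skin nonmigrated cells came from 1 library (range 0.690 to 5.80 CPM).

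The profile of each gene over the 18 libraries was set against 17992 genes with 10 or more counts in at least 3 libraries. Vwf was most like Ninj1 (Pearson r of log2(CPM + 1) 0.993), followed by Lhfpl2 (0.992) and Arg1 (0.991). Clec1b was most like Gm42793 (0.984), with Inhba also among its nearest 5 (0.982). Treml1 was most like Flnc (0.994) and Cspg4 (0.991). Gp6 was most like Gm12589 (0.971) and had the platelet integrin gene Itga2b among its nearest 5 (0.970). Gp1bb was most like Megf10 (0.984) and Gp9 most like Sema3g (0.964), Tubb1 most like S100a14 (0.928), Gp1ba most like Dgkq (0.938) and Gp5 most like Rbks (0.831). The mean standardised profile of the 9 genes was most like that of Nfe2l2 (0.972). These values rest largely on which of the 6 groups were high and carry no test.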

How the data were processed

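Bulk RNA was sequenced as paired reads of 100 bases from sorted leukocytes in 6 groups of 3 libraries. The authors trimmed the reads, aligned them to mm10 with TopHat2 and counted them per gene with HTSeq in its default mode, and the deposited table holds these raw counts. The submitters' processing notes also name FastQC, Trim Galore, Cufflinks and DESeq2. All 18 columns were matched to samples by their labels. HTSeq's 5 summary rows (11.3% to 15.1% of a library) were left out. Of 49585 genes, 18650 were at 0 in every library. Symbols and positions came from GENCODE M21, which 49326 genes matched, as did 135 of 136 listed symbols. Reads that overlap exons of more than 1 gene are dropped by HTSeq's default mode, which bears on Gp1bb and, over a small part of its length, on Clec1b.

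Counts were tested with edgeR 4.0.16 (R 4.3.3, limma 3.58.1) by quasi-likelihood F tests with trimmed mean of M values normalisation, a filter at a minimum count of 10 and Benjamini-Hochberg adjustment. One fit held the 4 inflamed groups and the other the migrated and steady-state node groups. Genes were called at an adjusted p under 0.05 and a log2 fold change above 1 in size. The fit was tested on simulated counts. Alternatives were DESeq2 1.42.0, its size factors in edgeR, other filters, an adjusted p under 0.001, a replicate block, other sets of libraries and leaving out each library.

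The genes and lists were chosen with earlier results of these data known. Of each list without one of the 9 genes, those named were the 4 highest per kilobase and the 4 called with the largest change in each direction in joint migrated against joint nonmigrated and in joint against skin nonmigrated cells, and some of these are given only as counts. Values of some listed genes are not reported here. Genes named beside this rule (Mpig6b, Ppbp, Cdh5, Gata1, Rag1, Igll1, Vpreb1, Clec9a and Sept5) were added after their values were seen. Sept5 and Clec9a were added because they overlap a gene described. Upstream sequences came from RefSeq (GRCm38.p6). Figures were drawn with matplotlib 3.10.9.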

Additional observations from a re-analysis of the deposited data

How the results depend on the processing

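Between 3 and 6 of the 9 genes were called in joint migrated against joint nonmigrated cells and between 2 and 6 in the skin over all alternatives, against 4 and 4 as reported. Fitting only the groups compared gave 2 calls in the skin, since 3 genes passed its filter, and 1 between the nonmigrated groups. An adjusted p under 0.001 gave 0 calls between the nonmigrated groups, 0 for joint migrated against steady state and 1 for skin migrated against steady state. DESeq2 gave 1 call in the interaction, and a filter at 10 counts in every library of 1 group gave 2 calls for joint migrated against steady state. With no filter or with all 18 libraries, skin migrated against steady state had 3 calls against 2 reported, the third being Tubb1 (2.03, adjusted p = 0.047, and 2.04, adjusted p = 0.022). Leaving out 1 library at a time gave 3 to 4 calls in joint and 4 to 6 in skin migrated against nonmigrated cells, 1 to 4 between the nonmigrated groups, 0 between the migrated groups, 0 to 1 in the interaction, 1 to 2 for joint migrated and 2 to 3 for skin migrated against steady state, and 0 between the steady-state nodes. The genes tested changed from 6 to between 5 and 8 in the inflamed fit when a library was left out, and the added calls in the skin were Gp1ba, Tubb1 and, at 3 or fewer counts in every skin library, Gp1bb and Gp9. Clec1b, untested as reported against steady state, was called there in the joint without steady-state replicate 1 (2.04, adjusted p = 0.043) and in the skin without migrated replicate 2 (2.23, adjusted p = 0.039).

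Of 455 values of single genes tested in the reported fits, 428 kept their direction and side of the threshold, 8 became called, 15 lost the call and 4 changed sign, none of them called: Gp1ba between the nonmigrated groups (-0.0086 to 0.17 without 1 library), Vwf between the migrated groups (-0.23 to 0.41, with a further negative value of -0.07) and Tubb1 there (-0.70 to 0.36). The cause was not tested. The labels do not say whether libraries of the same number are paired. Deviations of same-numbered nonmigrated and migrated libraries correlated at 0.02 to 0.25 in the joint and at 0.07 to 0.17 in the skin. Every skin nonmigrated library correlated best with the migrated library of its number, as did joint nonmigrated replicates 2 and 3 but not 1. Between the migrated groups of joint and skin, replicates 2 and 3 also correlated best with their own number. Over all pairs of groups the correlations ran from -0.35 to 0.25. Any pairing is a hint from the data and not the design. With a replicate block 3 genes were called in the joint, 4 in the skin and 2 between the nonmigrated groups, 1 and 2 against steady state, and 0 elsewhere. Gp6 in the joint (adjusted p = 0.061) and Clec1b between the nonmigrated groups (0.051) lost their calls under the block.

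Over all genes, calls fell from 2400 to 511 between the nonmigrated groups, from 191 to 0 between the migrated groups and from 1029 to 20 in the interaction at an adjusted p under 0.001, and from 5757 to 3586 and from 5940 to 3508 for joint and skin migration, from 4143 to 2714 for joint migrated against steady state and from 665 to 246 between the steady-state nodes. Between the migrated groups calls were 327 without the filter, 465 by DESeq2, 407 with all 18 libraries and 58 to 65 without some libraries. In the interaction they were 1729 by DESeq2, 1664 with all 18 libraries, 582 to 640 without some libraries and 2610 without skin nonmigrated replicate 3.

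Depth limits most of these genes. Gp1bb, Gp5, Gp9, Gp6 and Tubb1 never exceeded 28 counts in a library.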

Other observations

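Other markers in the same sorted cells gave the setting of the platelet genes. As background for the lists below, 3079 of all 16777 genes tested were called lower and 2678 higher in joint migrated cells. In skin migrated cells 3307 were called lower and 2633 higher. Of 12 monocyte, macrophage and dendritic cell genes 11 were tested, and in joint migrated cells 3 were called higher and 4 lower (median log2 change -0.04), in skin migrated cells 3 higher and 5 lower (median -1.10). The homing receptor gene Ccr7 was higher in joint migrated cells by 4.87 ± 0.56 and the dendritic cell factor Zbtb46 by 3.66 ± 0.34, while the tissue macrophage gene Vsig4 was at 34.8 CPM in joint nonmigrated and 0.0375 CPM in joint migrated cells. Vsig4 was also higher in joint than in skin nonmigrated cells, by 6.32 ± 0.60 on the log2 scale (edgeR, adjusted p = 0.00017).

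Of 6 leukocyte genes 2 were called higher and 3 lower in migrated cells at each site, with medians of -2.82 and -2.16. Cd3e was higher in joint migrated cells by 2.94 ± 0.36, and S100a8, Itgam and Csf1r were lower, with log2 changes of -8.24 ± 0.74, -6.15 ± 0.28 and -6.01 ± 0.45. Of 6 mast cell, basophil and eosinophil genes 3 were called lower in joint and 4 in skin migrated cells and none higher, with medians of -2.50 and -4.88. The eosinophil gene Epx was higher in joint than in skin nonmigrated cells by 8.49 ± 1.15, and the basophil gene Mcpt8 was lower (-3.20 ± 0.55). Of 11 erythroid genes matched 8 were tested, and 3 were called lower in joint and 4 in skin migrated cells, with medians of -1.22 and -2.79. Their summed level ran from 4.30 to 38.8 CPM within the skin nonmigrated group. Of the 15 marrow precursor genes 13 were called lower in joint migrated cells (median -8.08), and in skin migrated cells 4 were called lower and 1 higher (median -2.21).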
